A study of Mus musculus with 2 samples.

Results

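Within the library of sorted activated satellite cells (ASCs), 120 barcodes carried transcripts of fast muscle fibres together with a high share of transcripts from genes that muscle makes under mechanical load or protein damage. These 120 members were chosen by their own counts. Barcodes were kept if 500 or more genes were detected and no more than 10% of the UMIs (unique molecular identifiers, each standing for 1 captured transcript) were mitochondrial, and a fibre barcode took at least 5% of its UMIs from 10 fast-fibre genes, namely Myf6, Myh4, Acta1, Ckm, Mylpf, Tnnt3, Tnnc2, Myh1, Pvalb and Atp2a1. The 100 fibre barcodes richest in the slow-fibre genes Tnnt1, Tnnc1, Tnni1, Myl3, Myl2 and Myoz2 were set aside, and the members were the 120 of the remaining 839 with the highest share of UMIs from Ankrd1, Csrp3, Hspb1, Lmcd1, Otud1 and Mybph. They made up 14.3% of those 839 barcodes, 12.8% of all 939 fibre barcodes and 8.17% of the 1468 kept ASC barcodes, out of 1984 kept barcodes in both libraries. The 719 fast-fibre barcodes that were not members are called the other fast-fibre barcodes below.

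Both libraries came from the tibialis anterior (TA) muscle of mice that were 8 weeks old and of the genotype Pax7 CreERT2/+ ;Rosa26 mTmG/+, in which a Cre recombinase driven from the Pax7 locus can switch the fluorescent reporter of satellite cells. Quiescent satellite cells (QSCs) were sorted from uninjured muscle and ASCs from muscle injured with cardiotoxin (CTX), a snake venom toxin that lyses fibres, 1.5 days earlier. Each group had 1 library, made from the pooled cells of several mice, which the counts do not tell apart. Differences between the libraries could not be told apart from differences between the conditions. No test was possible within the ASC library because barcodes of 1 library are not replicates. Every interval given below is a 95% interval. Those of levels and ratios cover counting error of UMIs only. Those of detection shares treat the barcodes of 1 library as independent draws, so they give no spread between libraries and their overlap is not a test.

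Skeletal muscle fibres answer stretch, unloading and membrane damage by making proteins of the Z-disc, the anchor of the thin filaments. Ankrd1 (cardiac ankyrin repeat protein) binds titin and also acts in the nucleus, Csrp3 (muscle LIM protein) sits at the Z-disc as a part of its strain-sensing complex, and Hspb1 is a small heat shock protein that binds unfolded proteins and stabilises actin. Lmcd1 is a LIM-domain cofactor of transcription, Otud1 a deubiquitinase and Mybph a myosin-binding protein. Klhl40, a Kelch-repeat protein that keeps thin filament proteins stable, was the only proposed marker of these barcodes that the selection did not use.

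The 250 bases before the RefSeq start sites of Ankrd1, Hspb1, Csrp3 and Klhl40 are shown because these 4 genes name the members. They come from the RefSeq promoter table of GRCm38.p6 and run 5′ to 3′ on the strand of the gene, with capitals marking matches to CATTCC or its reverse complement GGAATG (the core bound by TEAD factors) and to GAANNTTC or TTCNNGAA (a pair of heat shock element units).

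Ankrd1 (chr19:36119845-36120094, minus strand): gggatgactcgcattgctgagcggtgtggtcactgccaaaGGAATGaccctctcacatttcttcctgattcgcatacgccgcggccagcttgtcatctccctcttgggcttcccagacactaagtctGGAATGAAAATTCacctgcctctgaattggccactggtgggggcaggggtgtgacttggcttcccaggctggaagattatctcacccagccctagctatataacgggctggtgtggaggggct
Hspb1 (chr5:135887669-135887918, plus strand): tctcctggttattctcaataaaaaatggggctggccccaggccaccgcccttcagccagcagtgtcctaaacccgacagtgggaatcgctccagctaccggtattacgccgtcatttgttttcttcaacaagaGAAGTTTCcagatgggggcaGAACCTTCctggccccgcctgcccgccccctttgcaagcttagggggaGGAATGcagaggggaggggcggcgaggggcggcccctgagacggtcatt
Csrp3 (chr7:48848052-48848301, minus strand): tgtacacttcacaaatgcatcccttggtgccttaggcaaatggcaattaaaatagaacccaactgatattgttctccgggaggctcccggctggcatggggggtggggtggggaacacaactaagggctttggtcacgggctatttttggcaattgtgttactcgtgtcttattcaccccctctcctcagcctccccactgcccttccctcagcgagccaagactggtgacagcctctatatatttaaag
Klhl40 (chr9:121777357-121777606, plus strand): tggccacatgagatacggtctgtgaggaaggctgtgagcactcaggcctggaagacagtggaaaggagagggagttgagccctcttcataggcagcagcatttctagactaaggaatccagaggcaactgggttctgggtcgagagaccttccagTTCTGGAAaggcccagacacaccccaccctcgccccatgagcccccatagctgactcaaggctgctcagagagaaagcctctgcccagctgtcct

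Ankrd1 lies on chromosome 19 at 36111961 to 36120099 on the minus strand of GRCm38, Hspb1 on chromosome 5 at 135887919 to 135889563 on the plus strand, Csrp3 on chromosome 7 at 48830398 to 48848033 on the minus strand and Klhl40 on chromosome 9 at 121777607 to 121783818 on the plus strand. The bases shown for Ankrd1 lie wholly within the gene as GENCODE gives it, whose start is further upstream than that of RefSeq. The Ankrd1 promoter held the TEAD letters at 210 and 123 bases before the start and the heat shock letters at 118, where the 2 motifs share 1 base. The Hspb1 promoter held the TEAD letters at 49 bases and the heat shock letters at 117 and 97 bases before the start, and that of Klhl40 the heat shock letters at 95. The upstream promoter of Csrp3 held neither motif, and its second listed promoter, which lies within the gene, held the heat shock letters at 10 bases before the start. Among all 32851 promoters of the table, searched on both strands, 12.6% held the TEAD letters and 12.8% the heat shock letters. Of the 6 genes that chose the members, all found in the table, 4 held the TEAD letters (Ankrd1, Hspb1, Mybph and Otud1) and 3 the heat shock letters (Ankrd1, Csrp3 and Hspb1). Here and below a gene counted if any of its listed promoters matched, as Csrp3 did only through its second. The shares of all promoters count single promoters, so the 2 are not on the same footing. The E-box letters CANNTG, which stood in 66.2% of all promoters, were found in all 6, and the CArG box, found in 1.47% of all promoters, only in Lmcd1 among the 6. Of the 15 genes named below for the highest ratios, 11 were in the table, and 1 of them held the TEAD letters (Flnc), 4 the heat shock letters (Hspa1a, Klhl40, Myl12a and Rcan1) and 3 the AP-1 letters TGANTCA (Klhl40, Myl12a and Rcan1), which stood in 6.75% of all promoters. A match to these letters is a description and not a measured binding site.

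The ASC matrix held 1650 barcodes and the QSC matrix 766, with 9059807 and 1346020 UMIs. After the filters 1468 and 516 barcodes were kept, and 4 barcode sequences occurred in both libraries, none of them a member. The members held 404887 UMIs in all, from 888 to 15809 per barcode with a median of 2952, and a median of 1019 detected genes. The other fast-fibre barcodes had a median of 2696 UMIs and 1036 genes, so that the classes were of like depth, although 1 of the others held 76126 UMIs against 17807 in the next. Mitochondrial genes gave a median of 0.171% of the UMIs in members and 0.173% in the others, and 9 members were above the limit of 1% that the study's methods name. A doublet caller marked 3 of the 1468 kept ASC barcodes, too few to show that it worked, and none of them was a member. No doublets were removed.

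Although the labels give muscle stem cells as the cell type of both libraries, the members carried fibre transcripts. The fast-fibre genes of the selection took a median share of their UMIs of 11.95%, against 13.1% in the other fast-fibre barcodes and 2.23% in 85 leukocyte-like ASC barcodes. The latter served as a measure of free fibre RNA in droplets that also held leukocyte RNA. Pax7, the transcription factor that defines satellite cells, had 0 UMIs in the members, which allows up to 7.41 CPM (counts per 1000000 UMIs of a class) at a limit of 3 counts. The cell cycle genes Mki67 and Top2a also had none, and Myod1, the activating transcription factor of satellite cells, stood at 173 CPM in members and 171 CPM in the others, below the 410 CPM of the 444 remaining ASC barcodes under the fibre limit. Whether a droplet held a fibre fragment, a nucleus or free RNA cannot be told from the counts.

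The share of UMIs from the 6 selecting genes was 2.51% to 17.2% in members, with a median of 5.33%, and the median of the other fast-fibre barcodes was 0.435%. These values are the selection itself and carry no test. The last member stood at 2.51% and the first barcode outside at 2.50%, and 18 members and 21 others lay within 0.5 percentage points of that edge, so the members are the upper end of a range and not a separate group. At or above the same edge were 15 of the 100 slow-rich fibre barcodes, 1 of the 444 ASC barcodes under the fibre limit, 0 of the 85 leukocyte-like barcodes and 0 of the 104 QSC fibre barcodes, whose highest share was 1.52%.

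**Figure D1:**
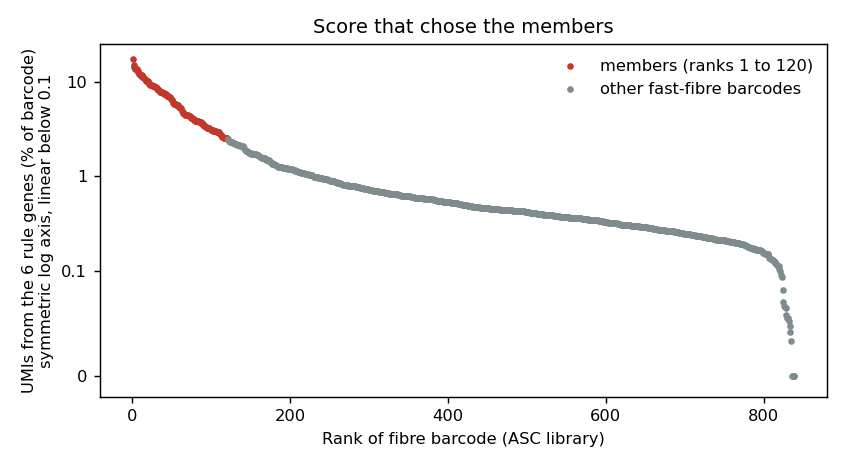
Share of UMIs from the 6 selecting genes (vertical, percent of a barcode's UMIs, symmetric log axis that is linear below 0.1) against rank (horizontal) for the 839 ranked ASC fibre barcodes, each point 1 barcode, with the 120 members in red. The curve falls from 17.2% without a gap at the edge near 2.51%.

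Hspb1 gave 42.3% of the selecting UMIs in members, Csrp3 29.0%, Ankrd1 16.7%, Lmcd1 9.33%, Mybph 1.38% and Otud1 1.35%. Hspb1 was the leading gene in 74 members, Csrp3 in 40 and Ankrd1 in 6. Of the members, 55 had UMIs of all 6 selecting genes, 50 of 5, 13 of 4 and 2 of 3, whereas 19 of the 719 others had all 6 and 4 had none. As the members were chosen on these genes, the difference in these counts is part of the selection. Per barcode, Hspb1 took 0.313% to 8.43% of the UMIs of a member (median 2.25%), Csrp3 0% to 4.50% (median 1.67%) and Ankrd1 0% to 4.51% (median 0.853%). The medians of the others were 0.211%, 0.0609% and 0.0192%, and the ranges of the classes overlapped for each of these 3 genes.

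To give each selecting gene a value that did not choose it, 120 barcodes were chosen again with the other 5 genes. Ankrd1 then stood at 10051 CPM in the chosen barcodes and 717 CPM in the remainder, 14.0-fold higher (log2 3.81, interval 3.73 to 3.89), and 117 of the original members were among those chosen. Csrp3 was 8.48-fold higher with 105 shared members (log2 3.08, interval 3.03 to 3.14) and Hspb1 8.27-fold with 110 (log2 3.05). Otud1 was 8.45-fold, Lmcd1 7.83-fold and Mybph 6.98-fold higher. Each of the 6 was at least 6.98-fold higher in barcodes picked by the other 5, within 1 library. The members were chosen with earlier results of these data known, and each new choice kept 105 to 119 of them. These values are therefore a description and not independent support.

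Klhl40 was detected in 117 of 120 members (97.5%) and in 419 of 719 other fast-fibre barcodes (58.3%). It took 0% to 1.02% of the UMIs of a member, with a median of 0.213%, against a median of 0.0274% in the others, and 114 members lay above that median. Summed over barcodes it reached 2413 CPM in members (977 UMIs) and 403 CPM in the others (942 UMIs), 5.98-fold higher (log2 2.58, interval 2.45 to 2.71). Its level was 456 CPM in the slow-rich fibre barcodes, 65.3 CPM in the QSC fibre barcodes from 14 UMIs, and 40.2 and 35.4 CPM in the ASC barcodes under the fibre limit and the leukocyte-like barcodes. After each barcode was thinned to 1200 UMIs, Klhl40 was found in 84.5% of 116 members (interval 76.6% to 90.5%) and 35.3% of 646 others (31.6% to 39.1%). Among 81 leukocyte-like barcodes it was found in 4.94% (1.36% to 12.2%). Those barcodes also hold leukocyte RNA, so this comparison cannot give the level of a droplet that held free fibre RNA alone.

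Of 3887 genes with at least 50 UMIs over both classes, the 22 selecting and filtering genes and mitochondrial genes left out, 118 (3.04%) were at least 2-fold higher in members and 458 (11.8%) at least 2-fold lower. The median ratio of all these genes was -0.30 on the log2 scale, and ratios are read against it. The 6 selecting genes took 6.09% of the members' UMIs, and a total without the 22 genes gave a median of -0.23. TMM scaling moved the median to -0.11, with 161 genes higher and 318 lower. At the minimum of 20 UMIs that gene lists used, 232 of 5976 genes (3.88%) were at least 2-fold higher and 1053 (17.6%) lower, with a median of -0.33, and the counts of a list are read against these shares. Among the 1300 genes with at least 100 CPM in either class, 70 were higher and 55 lower. As barcodes were chosen on genes of the same cells, these counts describe the members and are not a test.

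The 15 genes with the highest ratios were taken from those with at least 100 CPM in members. Among them, Xirp1, which encodes the actin-binding repair protein Xin, stood at 375 CPM in members and 45.4 CPM in the others (log2 3.05, interval 2.68 to 3.42) and was detected in 73 members (60.8%) and 84 others (11.7%). Pdlim1, a PDZ-LIM adaptor of alpha-actinin, was 6.71-fold higher, Enah, which extends actin filaments, 6.05-fold, and Flnc, the muscle filamin, 4.41-fold. The regulatory myosin light chain Myl12a was 4.13-fold higher, at 3399 CPM against 823 CPM. Pdlim1 and Enah were not as far from other barcodes of the library: the slow-rich fibre barcodes held 172 CPM of Pdlim1 against 123 CPM in members, and Enah stood at 106 CPM in members, 86.0 CPM in the slow-rich barcodes and 111 CPM in the ASC barcodes under the fibre limit. In 4 of these 5 genes the ratio rested on at most 152 member UMIs, and the interval of Enah ran from 1.95 to 3.25 on the log2 scale. Reads of Xirp1 and of Cx3cr1, of Myl12a and Myom1, and of the genes Nr1d1 and Thra, Lmcd1 and 5031434C07Rik, and Mybph and Adora1, can fall in overlapping annotations, and how strand was handled is not given in the sources used here.

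Atf3, a stress-induced factor of the ATF/CREB family, had the highest ratio of all named genes at 785 CPM in members and 50.5 CPM in the others (log2 3.96, interval 3.65 to 4.28), and was found in 76 members (63.3%) and 74 others (10.3%). Hbegf, a growth factor shed from the membrane, was 7.49-fold higher, Rcan1, an inhibitor of calcineurin, 4.51-fold, Nr1d1, a repressor of the circadian clock, 4.36-fold, Rgcc, a regulator of the cell cycle, 4.29-fold, and Gadd45g 4.23-fold. Gm13889, a protein-coding gene of GENCODE that has only a provisional name, was 4.37-fold higher. Atf3 was also present outside fibres: the leukocyte-like barcodes held 389 CPM, and after thinning it was detected in 33.3% of them against 42.2% of members and 4.80% of the others. Gadd45g was higher still in QSC fibre barcodes, at 513 CPM against 319 CPM in members. A single barcode held 29 of its 129 member UMIs. Without the richest barcode of each class its log2 ratio went from 2.08 to 1.77.

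**Figure D2:**
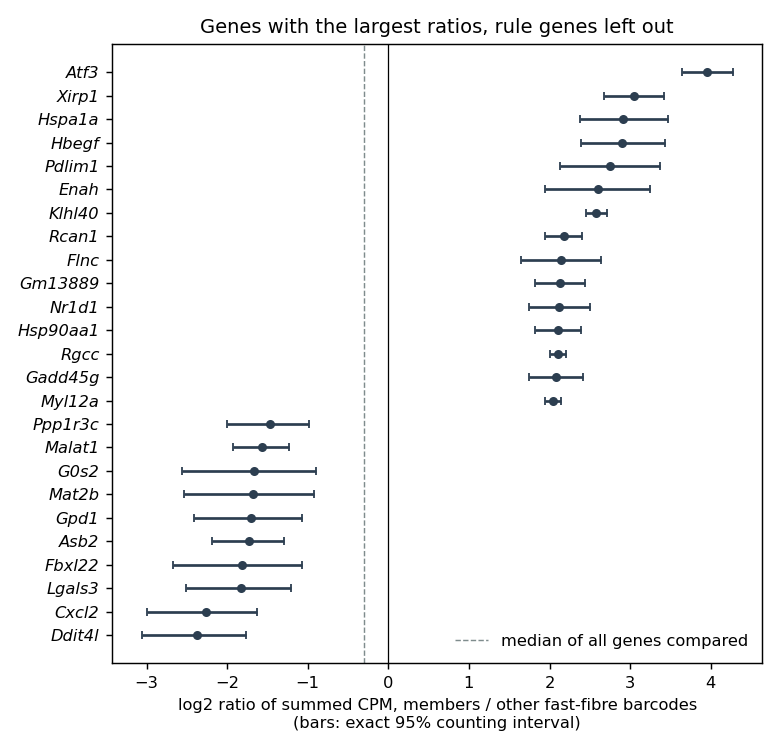
Log2 ratio of summed CPM, members over other fast-fibre barcodes (horizontal), for the 15 genes with the highest and the 10 with the lowest ratio, selecting genes left out, with exact 95% counting intervals as bars. The genes were taken from those with at least 50 UMIs over both classes and 100 CPM in the higher class. Atf3 stands highest at 3.96 and Ddit4l lowest at -2.38, and the dashed line marks the median of all genes at -0.30.

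Small heat shock proteins, which hold unfolded proteins and protect filaments, were the list with the highest median among those not built around a selecting gene. Of 6 genes (Hspb1 left out) 4 were at least 2-fold higher and none lower, with a median log2 ratio of 1.28 against -0.30 for all genes. Cryab, the alphaB-crystallin, took 0.844% to 11.2% of a member's UMIs (median 4.61%) and a median of 0.939% in the others, and 118 of 120 members were above that median. Its summed level was 44437 CPM against 10841 CPM (log2 2.04, interval 2.01 to 2.06). Hspb8, which works with Bag3 in chaperone-assisted autophagy, was 3.14-fold higher, Hspb7 2.76-fold, and Hspb2, whose annotation overlaps Cryab, had a log2 ratio of 1.09. Hspb6 stood at 3371 CPM against 3149 CPM, a log2 ratio of 0.10 whose sign turned in 1 of the alternatives, with 60 members.

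Larger chaperones were higher in part. Of 19 listed chaperones with at least 20 UMIs, 6 were at least 2-fold higher and none lower, with a median log2 ratio of 0.42. Hspa1a, the inducible Hsp70, had the highest ratio (log2 2.91, interval 2.37 to 3.46), but its 68 UMIs came from 16 members, 1 of which held 25, and its near-identical copy Hspa1b makes its counts uncertain. Hsp90aa1, the inducible Hsp90, stood at 435 CPM against 101 CPM (log2 2.10), and the co-chaperones Dnajb1, Dnaja1 and Bag3 had log2 ratios of 1.82, 1.75 and 1.34. These inducible genes were also present outside fibres, with Hsp90aa1 at 1232 CPM in ASC barcodes under the fibre limit. Constitutive members of the families lay nearer to equal, with Hspa8 at a log2 ratio of 0.90 and Hsp90ab1 at 0.42. The list of genes of the unfolded protein response in the endoplasmic reticulum also held integrated stress response genes. Its median was at the background, -0.35 against -0.33 for all genes. Of 12 measured genes 0 were at least 2-fold higher and 4 lower (Chac1, Trib3, Herpud1 and Ddit3). Of all genes, 3.88% were higher and 17.6% lower. The list summed to 0.0939% of the UMIs in either class. Herpud1 had 2 UMIs in members and 84 in the others (log2 -2.86, interval -5.93 to -0.97), while the chaperone Hspa5 had a log2 ratio of 0.12.

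Genes of stretch response and of the Z-disc were split. Of 22 such genes, 9 were at least 2-fold higher, 1 was lower, and the median log2 ratio was 0.52. Ankrd2, the relative of Ankrd1 in the titin-binding ankyrin repeat family, stood at 4130 CPM against 1046 CPM (log2 1.98, interval 1.89 to 2.07), with 118 of 120 members above the median of the others. The third relative, Ankrd23, went the opposite way at 1596 CPM against 4038 CPM (log2 -1.34, interval -1.46 to -1.22), and only 14 members lay above the median of the others. Nebulin-related Nrap (log2 1.65), Xirp2 (1.74), Pdlim3 (1.26) and the LIM protein Fhl1 (1.09) were higher, whereas the structural Z-disc genes Tcap, Myoz1, Ldb3 and Myot had log2 ratios between -0.32 and -0.14. Besides Klhl40, muscle Kelch genes past 2-fold were Klhl41 with 1215 CPM against 364 CPM (log2 1.74, interval 1.58 to 1.90) and Klhl30, 2.01-fold higher, out of 5 measured.

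Among immediate-early genes, 4 of 18 were at least 2-fold higher and 2 lower, with a median log2 ratio of 0.32. The higher ones were Atf3, Csrnp1, Btg2 and Ier5, whereas Fos and Jun, the subunits of AP-1, had log2 ratios of 0.27 (interval -0.34 to 0.84) and 0.08 (interval -0.38 to 0.51). Fos stood at 76.6 CPM in members and 1817 CPM in the leukocyte-like barcodes. Of the targets and cofactors of YAP and SRF, 9 of 18 had 20 UMIs, and Ccn1 (35 UMIs against 14, log2 3.85, interval 2.92 to 4.86) and Tead4 (14 against 39, log2 1.05, interval 0.05 to 1.96) passed 2-fold. Membrane repair genes had a median log2 ratio of 0.26, with Anxa2, an annexin that seals membranes, at 1.28 and Dysf, at 6 UMIs, too sparse to place. Of 7 measured denervation genes, 2 were at least 2-fold higher (Myog and Runx1) and 1 lower (Chrna1), with a median log2 ratio of 0.10. Myog, a myogenic factor that denervated fibres also make, stood at 279 CPM against 114 CPM (log2 1.29, interval 0.96 to 1.62). However, its thinned detection was 13.8% of members (interval 8.09% to 21.4%) and 10.8% of the others (8.55% to 13.5%), which overlap. Its log2 ratio was 0.97 without the richest barcode of each class, as 27 of its 113 member UMIs came from 1 barcode. Chrna1, a subunit of the acetylcholine receptor, had 0 UMIs in members against 34 in the others. Of the 35 member UMIs of Ccn1, 18 came from 1 barcode, and its log2 ratio was 3.05 without the richest barcodes.

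At the other end, Ddit4l, an inhibitor of mTOR signalling, had 54.3 CPM in members and 282 CPM in the others (log2 -2.38, interval -3.06 to -1.77). Asb2, a ubiquitin ligase subunit of muscle, was 3.31-fold lower, Gpd1, which links glycolysis to lipid synthesis, 3.26-fold, and Ppp1r3c, which targets a phosphatase to glycogen, 2.77-fold. Fbxl22, Mat2b and G0s2 had log2 ratios from -1.81 to -1.67. Cxcl2 and Lgals3 were 4.81-fold and 3.54-fold lower, and both were abundant in the leukocyte-like barcodes, at 9118 and 3680 CPM. The 10 leukocyte markers summed to 0.0277% of the UMIs of members (0% to 0.182% per barcode), 0.0318% of the others (0% to 1.49%) and 2.43% of the leukocyte-like barcodes, with Ptprc at 0 in members, and their part in these 2 ratios was not tested. With 240 members the ratio of Cxcl2 turned to 0.13. Malat1, a transcript that stays in nuclei, was 188 CPM in members, 558 CPM in the others and 6939 CPM in the ASC barcodes under the fibre limit. A single barcode of the others held 328 of their 1303 Malat1 UMIs, and without the richest barcode of each class the log2 ratio went from -1.57 to -1.22. After thinning it was found in 20.7% of members (interval 13.7% to 29.2%) and 23.5% of the others (20.3% to 27.0%), which overlap.

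Glycolysis was the list with the lowest median among those with over 10 measured genes. None of its 16 genes had a ratio above 0, 3 were at least 2-fold lower (Gpd1, Phkg1 and Pgm1) and the median log2 ratio was -0.69 against -0.33 for all genes. The 3 of 16 lower genes are close to the 17.6% of all genes. Pgam2, the muscle phosphoglycerate mutase, stood at 2611 CPM against 4838 CPM (log2 -0.89, interval -0.98 to -0.80) and Tpi1 at -0.88, whereas Gapdh, at -0.18, lay above the median of all genes. The nuclear genes of the respiratory chain had a median of -0.29 over 22 genes and none past 2-fold, which is near the background. Contractile genes outside the selection had a median of -0.30 over 14 genes, and Acta1, used for the fibre filter, had a log2 ratio of -0.05. Pvalb, the calcium buffer of the fastest fibres and also part of that filter, was 9447 CPM against 13428 CPM (log2 -0.51).

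Atrophy genes were at the background as a list. Of 17 measured, 1 was at least 2-fold higher (Gabarapl1, log2 1.05) and 2 lower (Mstn and Fbxo32), and the median was -0.36, where all genes had 3.88% higher, 17.6% lower and a median of -0.33. The ubiquitin ligase Fbxo32, also called atrogin-1, had 5 UMIs in members against 206 in the others (log2 -2.84, interval -4.47 to -1.59), whereas its partner in atrophy Trim63, or MuRF1, stood at 375 CPM against 483 CPM (log2 -0.36, interval -0.62 to -0.12), close to the median of all genes and of the opposite sign with 240 members. Metallothioneins had ratios from -0.26 to -0.23, also close to that median, and Mt1 and Mt2 turned to a positive sign with 240 members. Proteasome subunits had a median of -0.06 over 31 genes, with 1 lower, and ribosomal protein genes -0.15 over 30 with none past 2-fold.

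Polyamine genes, the subject for which the libraries were made, were near the background. Of 12 measured genes of polyamine metabolism and of eIF5A, none was at least 2-fold higher and 1 lower (Smox, spermine oxidase, 7 UMIs against 115, log2 -1.51, interval -2.86 to -0.42), with a median of -0.28. Odc1, the rate-limiting decarboxylase of the pathway, stood at 393 CPM in members and 316 CPM in the others (log2 0.32, interval 0.06 to 0.56). After thinning it was detected in 41.4% of members (interval 32.3% to 50.9%) and 28.9% of the others (25.5% to 32.6%), intervals that just overlap. Sms, spermine synthase, had a log2 ratio of -0.11 whose interval of -0.41 to 0.18 held 0, and Eif5a, the factor that spermidine modifies, -0.35 (interval -0.55 to -0.16). Odc1 was 60.6 CPM in the QSC fibre barcodes from 13 UMIs.

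**Figure D3:**
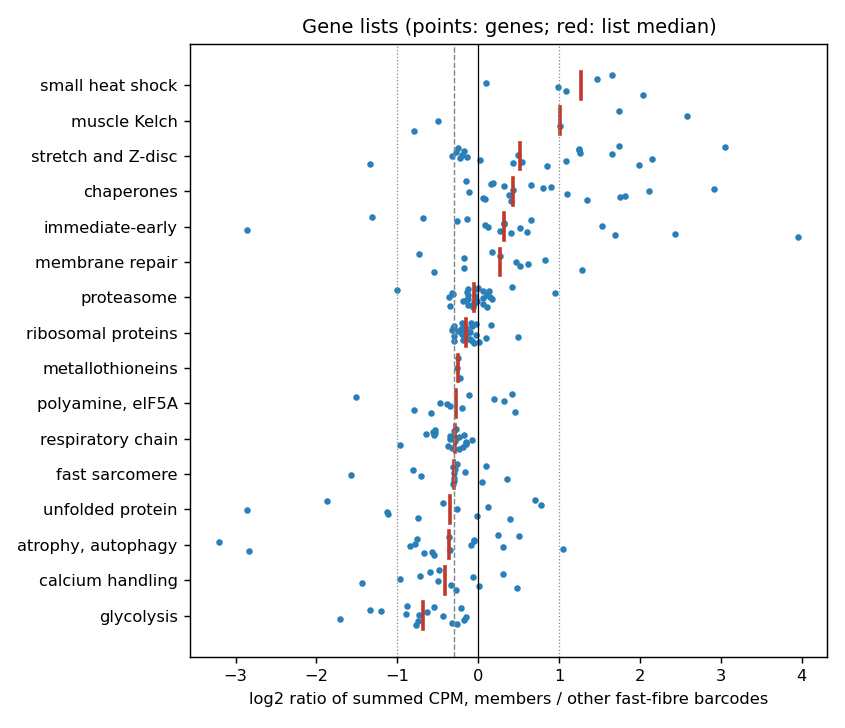
Log2 ratio of summed CPM, members over other fast-fibre barcodes (horizontal), for genes with at least 20 UMIs in 16 gene lists (rows), 1 point a gene with UMIs in members and a red bar at the list median, dotted lines at 2-fold and a dashed line at the median of all genes. Small heat shock and Kelch genes lie farthest right, with a median of 1.28 for the former, and glycolysis farthest left at -0.69.

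Markers of other cells were near 0 in members. Of the fibroblast markers Pdgfra, Col1a2, Clec3b, Dcn and Lum had 0 UMIs, of the endothelial markers Pecam1, Cdh5, Kdr, Egfl7, Esam and Ly6c1, and of the Schwann cell markers all 5. Each of these lists summed to at most 0.00346% of the UMIs. Of the 2 endothelial genes with at least 20 UMIs, Cav1 was at least 2-fold higher in members. The endothelial list summed to 0.00296% in members and 0.00214% in the others. Smooth muscle and pericyte markers summed to 0.00716% in members and 0.00505% in the others. The red cell haemoglobin genes summed to 0.00642%. The cardiac genes Nppa and Myh7 had 0 UMIs, while Xirp1 and the selecting gene Ankrd1 were the members of that list past 2-fold.

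When the 22 selecting and filtering genes were left out, members still resembled each other. In 10 principal components of the 1000 most variable remaining genes, 66.1% of the 15 nearest neighbours of a member were members, against 4.33% of those of the other fast-fibre barcodes and 14.3% of all ranked barcodes. A majority of members among the neighbours was found for 85 of the 120, all 15 neighbours were members for 31, and 5 members had none. Of the others, 530 of 719 (73.7%) had no member among their neighbours. The members were the upper end of a score that genes outside the selection also followed. These shares are therefore a description and not support for a separate group.

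**Figure D4:**
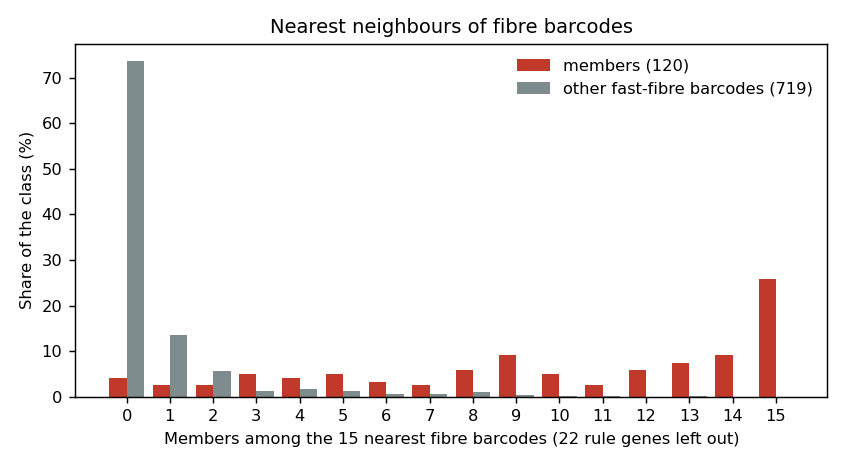
Share of each class in percent (vertical) by the number of members among the 15 nearest fibre barcodes (horizontal, 0 to 15), for the 120 members in red and the 719 other fast-fibre barcodes in grey. The others pile up at 0 (73.7%) and the members spread over the whole range with a peak at 15 (25.8%).

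Genes outside the selection followed the score in steps. Cryab was 58699 CPM in the 60 members of highest score, 32764 CPM in the other 60 members and 19601 CPM in the next 120 barcodes, and reached 8146 CPM in the 359 of lowest score. Klhl40 went from 3550 CPM to 1482, 767, 433 and 282 CPM over the same 5 bins. Rgcc and Hspb8 went down at every step as well. Atf3 was steeper, at 1410 CPM in the first 60 members and 274 CPM in the other 60, and Hspa1a was 351 CPM and 18.0 CPM, so that the top 60 carried most of both. Malat1 was 181, 193, 257, 862 and 458 CPM over the 5 bins, and the fourth value was 427 CPM without the barcode at rank 328, in which 23.8% of 1378 UMIs were Malat1. Because members and bins were ranked on the same cells, the order is a description.

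**Figure D5:**
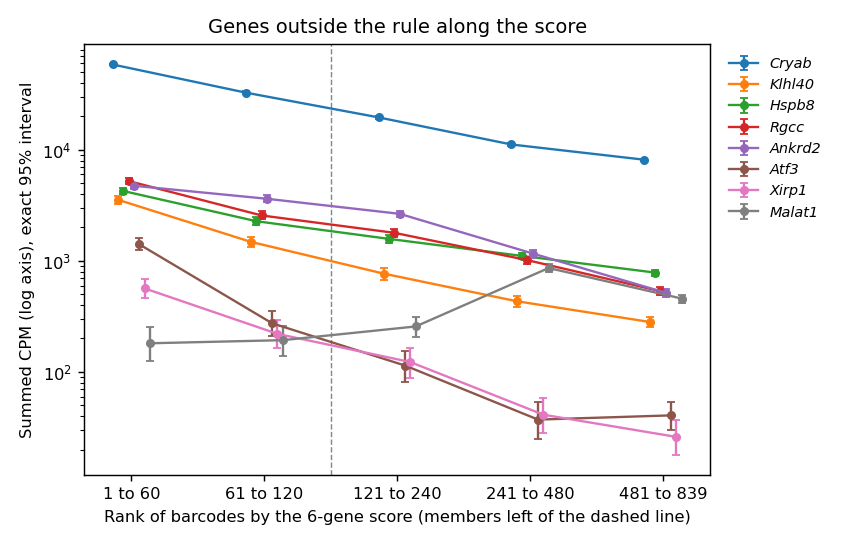
Summed CPM (vertical, log axis) of 8 genes outside the selection in 5 bins of barcodes ordered by the score (horizontal), with exact 95% Poisson intervals and members left of the dashed line. Cryab falls from 58699 to 8146 CPM and Klhl40 from 3550 to 282 CPM.

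The members were not uniform. Across the 120, Spearman's rho of UMI shares was 0.66 for Ankrd1 and Hspb1, 0.64 for Hspb1 and Lmcd1, 0.68 for Csrp3 and Cryab, 0.52 for Ankrd1 and Atf3, and -0.41 for Csrp3 and Mt3, all over barcodes of 1 library whose shares sum to a fixed total. Neither Ankrd1 nor Csrp3 followed depth, with rho of -0.12 and -0.09 against total UMIs. The 74 members led by Hspb1 and the 40 led by Csrp3, a split made after the values were seen, had median depths of 2884 and 3087 UMIs. Of 859 genes with at least 100 CPM in either, selecting and filtering genes left out, 32 (3.73%) were at least 2-fold higher in the Hspb1-led members and 7 (0.815%) lower. At 20 UMIs, 6.98% of 1834 genes were higher and 3.11% lower, with a median of -0.0053.

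Of 16 listed chaperones measured in this split, 5 were at least 2-fold higher in the Hspb1-led members and none lower, with a median log2 ratio of 0.68. Hspa1a stood at 210 CPM against 21.6 CPM from 3 UMIs in the Csrp3-led members, Gadd45g at 468 CPM against 72.1 CPM (log2 2.70, interval 1.77 to 3.80), Dnaja1 at a log2 ratio of 2.24, Atf3 at 1.76 (interval 1.28 to 2.27), Hsp90aa1 at 1.75, Myog at 1.70, ubiquitin Ubb at 1.53 and the metallothionein Mt2 at 1.52. In the Hspb1-led members a single barcode held 29 of the 116 UMIs of Gadd45g. The richest barcode held 27 of the 81 UMIs of Myog there and 25 of the 52 of Hspa1a. Ankrd1, itself one of the selecting genes, was 12111 CPM against 4629 CPM, and Klhl40 2842 CPM against 1601 CPM (log2 0.83, interval 0.61 to 1.05). The 22 nuclear genes of the respiratory chain had a median of -0.42, with 20 of them at or below 0 and none past 2-fold either way. The 7 genes past 2-fold towards the Csrp3-led members were Ndufv1, Mb, Fastk, H19, Got1, Tmem70 and Thoc7, each but Mb from at most 39 UMIs on a side. The oxygen carrier myoglobin, Mb, stood at 3310 CPM against 1328 CPM in the Hspb1-led members (log2 -1.32, interval -1.53 to -1.11), the complex I subunit Ndufv1 at a log2 ratio of -1.37, Got1 of the malate-aspartate shuttle at -1.12 and its partner Mdh1, short of 2-fold, at -0.95. Ankrd2 was also higher there, 5177 CPM against 3609 CPM. Cryab and Hspb7, at 0.19 and -0.13, differed little between these members, and the slow-rich fibre barcodes held 10498 CPM of Mb.

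Against the 100 slow-rich fibre barcodes of the same library, Rgcc was 8.39-fold higher in members, Gadd45g 5.32-fold, Klhl40 5.29-fold, Hbegf 4.89-fold and Hspb8 4.63-fold. Csrp3 was less apart, at 17627 CPM against 7464 CPM, and Ankrd2 stood at 4130 CPM against 3315 CPM. Of the 15 genes named for the highest ratios against the other fast-fibre barcodes, Pdlim1 (log2 -0.48, interval -1.09 to 0.13), Enah (0.30, interval -0.46 to 1.10) and Hspa1a (0.24, interval -0.35 to 0.85) had intervals against the slow-rich barcodes that held 0. The lowest ratios were those of Myl10, Fam240b, Pcp4, Tpm3 and Myh2, in a class that was itself chosen on slow-fibre genes. Against 120 barcodes richest in Mt3, Trim63 and Fbxo32, taken from the others, Atf3 was 63.2-fold higher in members from 4 UMIs in the comparison class (log2 5.98, interval 4.61 to 7.87). Pdlim1 was 19.9-fold higher from 2 UMIs there (log2 4.31, interval 2.38 to 7.40), Flnc 9.86-fold from 5 UMIs and Hbegf 6.54-fold from 9 UMIs. Lgals3, Maf, Fbxl22 and Ddit4l were between 8.52-fold and 4.97-fold lower. Of the members themselves, 11 were among the 120 of the ranked 839 with the highest share of Mt3, Trim63 and Fbxo32 UMIs. Members made up 14.3% of those 839, so the count does not show content that the classes shared.

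The uninjured library held 104 fibre barcodes with 214486 UMIs, a median depth of 1635 UMIs and a median mitochondrial share of 0.719%. Their median share of the 6 selecting genes was 0.0612%. Ankrd1 had 12 UMIs there (55.9 CPM) against 10156 CPM in members, Csrp3 527 CPM against 17627 CPM, Hspb1 354 CPM against 25743 CPM, and Otud1 0 UMIs, which makes its level in members at least 58.8-fold higher at 3 counts over the class. These genes chose the members and not the QSC fibre barcodes, so the selection is part of these differences. Summed, the 6 selecting genes took 0.567% of the UMIs of the other fast-fibre barcodes and 0.118% of those of the QSC fibre barcodes. Genes outside the selection were also lower in the QSC fibre barcodes, with Cryab at 2056 CPM, 21.6-fold below the members, Hspb8 at 219 CPM and Klhl41 at 284 CPM. The highest ratios of genes outside the selection were those of Gm13889, Rgcc, Uck2, Tubb6 and Rrad, with Rgcc at 3767 CPM against 60.6 CPM (log2 5.96, interval 5.18 to 6.87) and Rrad, a small GTPase that tempers calcium channels, at 1158 CPM against 23.3 CPM. Other fibre barcodes of the ASC library also held these transcripts: the barcodes rich in Mt3, Trim63 and Fbxo32 held 1255 CPM of Rrad, 761 CPM of Tubb6 against 968 CPM in members, 1650 CPM of Rgcc, 149 CPM of Uck2 and 143 CPM of Gm13889, and the other fast-fibre barcodes held 499, 471, 877, 122 and 88.7 CPM. Pdk4, the kinase that closes entry of pyruvate into mitochondria, was 14.5-fold lower in members (log2 -3.86, interval -4.86 to -2.98), but stood at 32.6 CPM in the other fast-fibre barcodes and 29.6 CPM in members, and Ddit4l was 10.4-fold lower. Each side is 1 library, and depth and mitochondrial share moved with the difference, so the part of injury cannot be told apart from that of the library.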

How the data were processed

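One QSC and one ASC library were analysed. Per the labels and the study's methods, cells were sorted from digested muscle and libraries made with droplet 3′ chemistry (v2). The deposited counts were made by the authors with Cell Ranger, release 6.0.2 per the file headers and 7.1.0, with mm10, per the processing notes. Each value is a whole number of UMIs. The annotation and strand handling are not given in the sources used here. The files hold 32285 features, of which 32235 matched the GENCODE M21 annotation of GRCm38 by identifier.

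From these counts, UMIs were summed over the barcodes of a class and scaled to CPM with exact Poisson intervals. Ratios carry exact conditional binomial intervals, and both kinds are at 95% and for counting error of UMIs only. Shares of barcodes carry exact Clopper-Pearson intervals at 95%, which treat barcodes of 1 library as independent draws. The precision is set by the 404887 UMIs of members and 2334874 of the other fast-fibre barcodes. A floor of 3 counts stood for 0. With 1 library per group, no test was run. Genes were named by rule: at least 50 UMIs over both classes and 100 CPM in the higher one, the 15 highest and 10 lowest ratios, 5 each way in the other comparisons, and the genes of 34 lists (list genes needed 20 UMIs). Mb, Ndufv1, Got1, Mdh1 and the other genes of the split by leading gene were chosen after their values were seen. The members and lists were chosen with earlier results of these data known. Leukocyte-like barcodes had at least 1% of UMIs from 10 leukocyte markers. Doublets were called with Scrublet in scanpy 1.11.5 and TMM factors computed with edgeR 4.0.16, and the scripts were tested on simulated data. Alternatives were the study's mitochondrial limit of 1%, 60 or 240 members, equal weights per barcode, other comparison sets, depth and thinning, scaling, and UMI minimums. Promoters came from RefSeq (GRCm38.p6).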

Additional observations from a re-analysis of the deposited data

How the results depend on the processing

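The log2 ratio of Klhl40 was 2.58 and stayed positive in every alternative run: it was 2.84 with 60 members, 2.28 with 240, 2.73 without the deepest 10% of barcodes of each class, 2.78 with TMM factors and 2.77 with median-of-ratios factors, and moved by less than its counting interval in the others. The neighbour share of 66.1% was 68.3% with 5 principal components, 68.7% with 10 neighbours and 63.1% with 30. Counts of genes past 2-fold depended most on the minimum of UMIs: 118 higher and 458 lower became 232 and 1053 at 20 UMIs, 50 and 79 at 200 UMIs, 1233 and 5266 with no minimum other than 1 UMI, and 65 and 234 after thinning to 1200 UMIs, all with a different number of genes compared. With 60 members 935 were lower and with 240 members 131, and TMM factors gave 161 higher and 318 lower. Of 49 genes followed in 15 settings, only Cxcl2 turned its called direction, to 0.13 with 240 members, and the cause was not tested. Of 692 gene ratios under alternatives, 546 stayed within the counting interval of the main ratio and 145 moved outside it. With 240 members Asb2 (-0.83), Fbxl22 (-0.97), Mat2b (-0.58), G0s2 (-0.86) and Ppp1r3c (-0.57) kept their sign but were no longer 2-fold lower. Ddit4l, Lgals3, Gpd1 and Malat1 still were. Of 390 list medians under alternatives, 359 stayed within the spread used to call a move. Medians of the small heat shock (1.08 to 1.49), Kelch (0.94 to 1.20), Z-disc (0.45 to 0.71), chaperone (0.41 to 0.71) and glycolysis lists (-0.74 to -0.41) kept their sign, and those of the proteasome, ribosomal, metallothionein and myogenic lists took both signs. With a mitochondrial limit of 1%, a new choice held 110 of the 120 members. Leaving out the deepest other fast-fibre barcode, or barcodes above 1% mitochondrial UMIs without choosing again, were alternatives chosen after seeing the data, and they gave 121 and 113 higher genes and 451 and 450 lower genes. Leaving out the barcode richest in a gene, in each class, was also chosen after seeing the data, and of these 49 genes it moved Malat1 most, from -1.57 to -1.22. No paired analysis was possible because each group has 1 library and no result comes from a test. Leaving out a library was not possible for the same reason. Depth limits genes with few UMIs: at 404887 member UMIs, 3 counts are 7.41 CPM.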

Other observations

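The background for lists was a median of -0.33 over all genes with 20 UMIs. Antioxidant and iron genes had a median log2 ratio of -0.24 over 15 genes, with Srxn1, which restores peroxiredoxins, at 296 CPM in members and 113 CPM in the other fast-fibre barcodes (log2 1.39, interval 1.06 to 1.70) and Fth1, the ferritin heavy chain, at 4043 CPM against 5822 CPM (log2 -0.53). Calcium handling genes of the sarcoplasmic reticulum had a median of -0.41 over 12 genes, with Hrc at 6 UMIs the only gene past 2-fold (log2 -1.44, interval -2.92 to -0.27). Targets of p53 had a median of -0.06 over 10 genes, with Btg2 and Plk2 higher. Embryonic and cardiac sarcomere genes had a median of 0.33 over 6 genes, above that background, and none past 2-fold. That median took values from -0.49 to 0.52 over the alternatives, and Myh3, Myh6 and Myh7 had 0 UMIs in members.

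Mustn1, a small nuclear protein of the musculoskeletal system that was singled out after its values were seen, took a median of 1.55% of the UMIs of a member and 0.520% in the others, and its rho with Cryab over the 120 members was 0.73, the highest among the pairs computed.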
